A study of Mus musculus with 15 samples.

Results

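The genes described here are 10 core genes of the ATF4 arm of the integrated stress response: Atf4, Ddit3, Atf3, Trib3, Sesn2, Ddit4, Chac1, Cth, Asns and Gdf15. They were taken as the rows with these symbols from a table of 25639 gene symbols, and all 10 were among the 12401 genes that passed a filter on low counts. They were chosen with their levels in all 5 groups of the study already known, so their levels and fold changes are a description. The number of them called by the fit is printed only beside the share of all genes called, with nothing read from it. P-values are given only for other genes of the pathway.

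The samples were cells of the mouse macrophage-like line RAW264.7, labelled as wild type, left untreated or given 1 µg or 10 µg of LCCL, which the series title presents as a peptide with an LCCL core motif. Treatment lasted 6 h or 24 h, and each of the 5 groups held 3 libraries of messenger RNA, with 19085148 to 22434642 counts a library. No vehicle group, harvest time for the untreated cells or volume for the doses is labelled, so LCCL and time in culture cannot be told apart in a comparison with untreated cells. The same holds for 24 h against 6 h at one dose, and only comparisons between doses were at the same labelled time. The labels do not say whether the 3 libraries of a group came from separate cultures, and p-values then measure the spread between these libraries only.

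The integrated stress response starts when a kinase phosphorylates the translation factor eIF2 on its alpha subunit. General protein synthesis then slows, while the Atf4 messenger RNA, which carries short upstream reading frames, is translated more. ATF4 is a bZIP transcription factor that pairs with C/EBP proteins and switches on genes for amino acid uptake and synthesis, for tRNA charging, for redox balance and, under lasting stress, for cell death. In macrophages the same pathway can be engaged by amino acid loss, by misfolded proteins in the endoplasmic reticulum, by oxidants, by double-stranded RNA and by mitochondrial faults.

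ATF4 and its C/EBP partners are known to bind a composite element whose core was searched here as TGATGNAA, on both strands. The 250 bases before the start were available for 9 of the 10 genes (RefSeq, GRCm38.p6), and 3 of them held the core, against 3.45% of 32851 mouse promoters of that length. Gdf15 had 2 promoters, neither with the core, so the count is by gene and the share by promoter. Those 3 promoters are shown as the ones that hold the core; the high 24 h levels described below were seen in genes with and without a match. They lie at chr1:191183334-191183583 on the minus strand (Atf3), chr2:119350992-119351241 on the plus strand (Chac1) and chr6:7693210-7693459 on the minus strand (Asns). Each is written from 5′ to 3′ in the direction of the gene, ends at the last base before the start, and has the match in capitals.
Atf3: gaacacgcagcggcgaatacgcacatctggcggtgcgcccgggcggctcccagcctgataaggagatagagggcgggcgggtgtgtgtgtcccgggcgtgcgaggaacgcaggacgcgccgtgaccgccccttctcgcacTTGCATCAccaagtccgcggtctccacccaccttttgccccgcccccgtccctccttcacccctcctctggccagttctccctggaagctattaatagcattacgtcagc
Chac1: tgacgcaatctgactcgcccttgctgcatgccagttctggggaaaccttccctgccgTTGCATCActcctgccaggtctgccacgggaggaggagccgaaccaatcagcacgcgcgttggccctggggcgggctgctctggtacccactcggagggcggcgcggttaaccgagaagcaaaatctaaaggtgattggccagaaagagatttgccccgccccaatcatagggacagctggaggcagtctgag
Asns: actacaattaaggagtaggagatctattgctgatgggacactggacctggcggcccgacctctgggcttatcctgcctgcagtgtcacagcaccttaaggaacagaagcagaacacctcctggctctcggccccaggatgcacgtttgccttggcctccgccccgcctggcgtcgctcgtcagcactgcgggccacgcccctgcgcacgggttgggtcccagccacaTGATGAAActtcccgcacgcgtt
The match lay 110 to 103 bases before the start in Atf3 and 193 to 186 bases before it in Chac1, in both as TTGCATCA, the core read from the opposite strand. In Asns it lay 23 to 16 bases before the start as TGATGAAA. The full cAMP response element TGACGTCA was in none of the windows of the 9 genes and in 1.55% of all promoters. None of the matches overlapped a match of another motif searched. A match is a run of letters, not a measured binding site.

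Levels are given as CPM, the read count scaled to a common library size, on sizes adjusted by the trimmed mean of M-values. CPM is not divided by transcript length, so levels are compared between libraries and not between genes. Fold changes are fitted log2 values ± SE from 3 libraries against 3. At 6 h the fitted log2 differences of the 10 genes from untreated cells ran from -0.33 (Trib3) to 0.57 (Cth), both with 10 µg. All 10 genes were higher in all 3 libraries of each 24 h group than in any untreated library, as were 32.2% of all genes tested with 1 µg and 36.2% with 10 µg. They were also higher in all 24 h libraries than in all 6 h libraries of the same dose, as were 32.5% of all genes with 1 µg and 35.8% with 10 µg. The genes were chosen for this pattern, and nothing is read from these shares. The median log2 difference from untreated cells over the 10 was 0.02 with 1 µg and 0.15 with 10 µg at 6 h, and 2.54 with 1 µg and 2.80 with 10 µg at 24 h. In bulk RNA, fewer cells of a kind and less RNA per cell cannot be told apart.

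**Figure D1:**
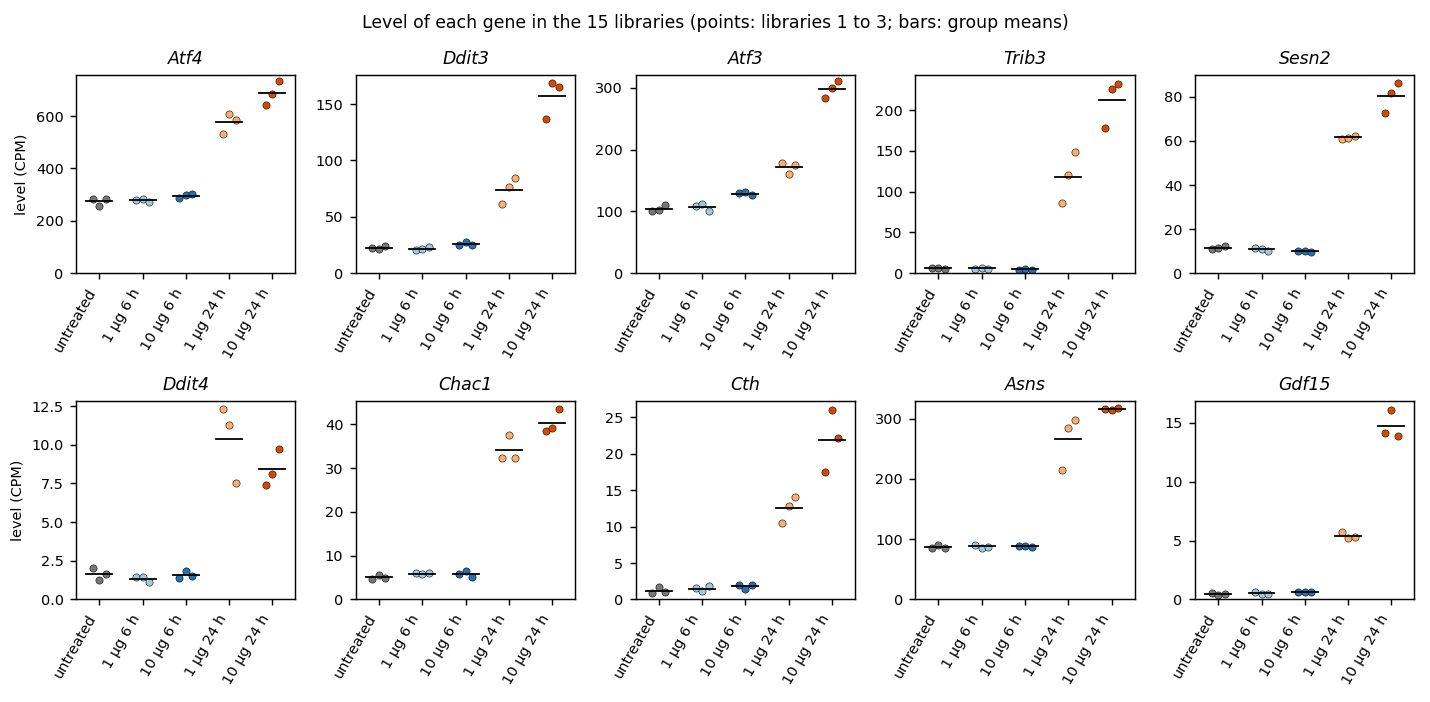
Level in CPM of each of the 10 genes (vertical axes, each on its own scale from 0) in the 15 libraries, by group (horizontal axis). Points are libraries and bars are the means of 3; in every panel both 24 h groups lie above the untreated group and both 6 h groups.

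Atf4 itself, the transcription factor at the head of the group, had 284, 256 and 282 CPM in the untreated libraries. It had 281, 282 and 273 CPM after 1 µg for 6 h and 288, 298 and 303 CPM after 10 µg for 6 h. The 3 libraries of 10 µg at 6 h were just above the highest untreated library, and those of 1 µg overlapped the untreated range. At 24 h Atf4 reached 532, 610.0 and 586 CPM with 1 µg and 644, 685 and 735 CPM with 10 µg. The difference from untreated cells was 1.07 ± 0.06 on the log2 scale with 1 µg, a fold of 2.10, and 1.33 ± 0.06 with 10 µg, a fold of 2.51. Atf4 had the smallest fold of the 10 genes with 10 µg at 24 h and the second smallest, after Atf3, with 1 µg.

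Ddit3 encodes CHOP, a C/EBP-family factor tied to cell death under lasting stress. Its untreated libraries had 22.3, 21.4 and 23.9 CPM. The 6 h libraries were at 20.6, 21.6 and 22.9 CPM with 1 µg and at 24.5, 27.3 and 25.2 CPM with 10 µg. At 24 h the levels split by dose, with 61.2, 76.3 and 84.3 CPM after 1 µg and 137, 169 and 165 CPM after 10 µg. No library of one dose was within the range of the other. The log2 difference from untreated cells was 1.71 ± 0.11 with 1 µg and 2.80 ± 0.11 with 10 µg, folds of 3.28 and 6.96. The table held 2 rows for this symbol with numbered suffixes; the second was at 0 in every library and the values are from the first. Ddit3 overlaps exons of Mars, a methionyl-tRNA synthetase gene on the opposite strand, and the strand setting of the counting is not given, so reads from the shared stretch cannot be told apart. The row for that gene, Mars1, differed from untreated cells by 0.50 and 0.39 on the log2 scale at 24 h.

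Atf3, a bZIP factor induced by many stresses, had the largest difference at 6 h relative to its standard error among the 10. Its levels were 100.1, 102 and 109.8 CPM in untreated libraries and 109, 112 and 101 CPM after 1 µg for 6 h. After 10 µg for 6 h they were 129, 131 and 126 CPM, above every library of both those groups. The log2 difference of 10 µg at 6 h from untreated cells was 0.30 ± 0.05, a fold of 1.24. At 24 h Atf3 had 179, 161 and 175 CPM with 1 µg and 283, 299.9 and 311 CPM with 10 µg. The folds over untreated cells were 1.65 and 2.86, and the 24 h dose groups did not overlap.

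Trib3 encodes a pseudokinase that binds ATF4 and CHOP and restrains them, as a feedback arm. It had the largest log2 difference of the 10 at 24 h with either dose. Untreated libraries had 5.76, 6.57 and 5.22 CPM, and the 6 libraries at 6 h had 4.20 to 6.75 CPM. After 1 µg for 24 h the libraries had 86.3, 121 and 148 CPM, and after 10 µg 178, 226 and 232 CPM. The lowest 24 h library was thus more than 10 times the highest library at 6 h or without treatment. Fitted log2 differences were 4.33 ± 0.24 with 1 µg and 5.18 ± 0.23 with 10 µg, folds of 20.1 and 36.1. Among the 12401 genes tested, these ranked 17th and 20th from the highest.

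Sesn2 and Ddit4 both act on mTORC1, the kinase complex that couples amino acids and growth signals to protein synthesis. Sesn2 encodes a leucine sensor that restrains mTORC1 through the GATOR complexes. Its libraries had 11.1, 11.4 and 12.4 CPM untreated, 61.1, 61.2 and 62.5 CPM after 1 µg for 24 h and 72.8, 82.0 and 86.3 CPM after 10 µg for 24 h. The 1 µg libraries at 24 h lay close together and all below the 10 µg ones. The folds over untreated cells were 5.31 and 6.93, from log2 differences of 2.41 ± 0.07 and 2.79 ± 0.07. At 6 h with 10 µg Sesn2 had 9.83, 10.2 and 9.56 CPM, all below the untreated libraries, with a log2 difference of -0.23 ± 0.09.

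Ddit4 encodes REDD1, which restrains mTORC1 through the TSC complex. It had 2.0, 1.23 and 1.64 CPM in untreated libraries and 1.11 to 1.84 CPM over the 6 libraries at 6 h. At 24 h it had 12.3, 11.3 and 7.53 CPM with 1 µg and 7.43, 8.12 and 9.71 CPM with 10 µg. Ddit4 was the only one of the 10 whose 24 h dose groups overlapped and the only one with a lower mean at the higher dose. Its folds over untreated cells were 6.40 with 1 µg and 5.19 with 10 µg.

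Chac1 and Cth stand at opposite ends of glutathione and cysteine handling: CHAC1 breaks glutathione down, and CTH makes cysteine from cystathionine. Chac1 had 4.59, 5.47 and 4.97 CPM untreated, 32.3, 37.5 and 32.4 CPM after 1 µg for 24 h and 38.6, 39.2 and 43.4 CPM after 10 µg for 24 h. The 24 h dose groups did not overlap but their edges were close, and the folds over untreated cells were 6.79 and 8.04. At 6 h the 1 µg libraries, at 5.98, 5.70 and 5.92 CPM, lay above the untreated range, while those of 10 µg overlapped it. Cth had 0.927, 1.69 and 0.994 CPM untreated, 10.5, 12.8 and 14.1 CPM after 1 µg for 24 h and 17.4, 26.0 and 22.2 CPM after 10 µg for 24 h. Its 6 libraries at 6 h ran from 1.10 to 2.03 CPM and overlapped the untreated range in both dose groups. The log2 differences at 24 h were 3.36 ± 0.21 and 4.17 ± 0.21, folds of 10.2 and 18. Untreated and 6 h libraries held 19 to 42 reads of Cth each, so counting error weighs more on its low groups.

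Asns makes asparagine from aspartate and is a standard readout of amino acid shortage. It had 86.1, 91.1 and 84.8 CPM untreated and 86.0 to 90.5 CPM over the 6 libraries at 6 h. At 24 h it had 215, 285 and 298 CPM with 1 µg, the first library well below its mates, and 316, 314 and 318 CPM with 10 µg. The folds over untreated cells were 3.04 and 3.62, from log2 differences of 1.60 ± 0.09 and 1.85 ± 0.09.

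Gdf15 encodes a secreted cytokine of the TGF-beta superfamily that signals stress to other tissues. It was the scarcest of the 10 by reads before 24 h, with 8 to 13 reads in each untreated and 6 h library. Untreated libraries had 0.537, 0.365 and 0.447 CPM, and 6 h libraries 0.476 to 0.640 CPM. At 24 h the libraries had 5.70, 5.23 and 5.32 CPM with 1 µg and 14.1, 16.1 and 13.9 CPM with 10 µg, a wide gap between the doses. The log2 differences from untreated cells were 3.58 ± 0.20 and 5.02 ± 0.18, folds of 11.9 and 32.4.

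**Figure D2:**
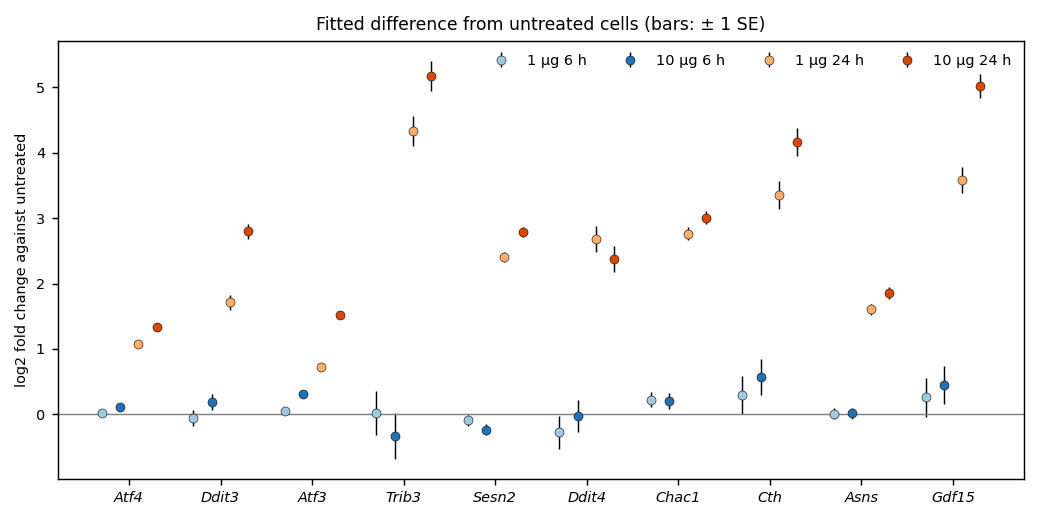
Fitted log2 fold change of each gene from untreated cells (vertical axis) for the 4 treated groups; points are estimates and bars ± 1 SE, from 3 libraries a group. The 6 h points lie between -0.33 and 0.57, and the 24 h points between 0.72 and 5.18.

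By the edgeR quasi-likelihood test, with p adjusted over all genes tested and called under 0.05, all 10 genes were called higher than untreated cells with 1 µg at 24 h, where 30.8% of all genes tested were called higher. All 10 were also called higher with 10 µg at 24 h, where the share of all genes was 35.4%. With 10 µg at 6 h, 1 of the 10 (Atf3) was called higher beside 4.09% of all genes, 4 (Atf4, Ddit3, Atf3 and Gdf15) lay above all untreated libraries beside 14% of all genes, and 1 (Sesn2) lay below them beside 13.3%; with 1 µg at 6 h none was called, nor was any other gene (0%), and 1 (Chac1) lay above all untreated libraries beside 5.62% of all genes. Of 24 h against 6 h, all 10 were called higher with 1 µg (30.3% of all genes) and with 10 µg (34% of all genes). The genes were chosen on these comparisons, and nothing is read from the counts. The median over all genes tested was within 0.02 of 0 on the log2 scale in each of these comparisons.

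The step from 1 µg to 10 µg at 24 h differed in size between the genes. Gdf15 had the widest step, 1.44 ± 0.13 on the log2 scale, followed by Ddit3 at 1.09 ± 0.10. Trib3 (0.84 ± 0.17), Cth (0.81 ± 0.15) and Atf3 (0.80 ± 0.05) formed a middle range that their standard errors do not separate. Sesn2 (0.38 ± 0.06), Atf4 (0.26 ± 0.06), Asns (0.25 ± 0.08) and Chac1 (0.24 ± 0.08) had small steps. Ddit4 went the other way by -0.30 ± 0.16, within the overlap of its libraries. Of the 10, 9 were called higher at the higher dose, beside 16% of all genes, and those 9 lay above all 1 µg libraries, beside 19.3%. Nothing is read from these counts. The order by dose step was not the order by fold over untreated cells: with 1 µg Ddit3 had a smaller fold than Chac1, 3.28 against 6.79, and its dose step was 2.12-fold against 1.18-fold.

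Library 1 of the group with 1 µg for 24 h differed from its mates more than other replicate pairs did: the chi-square per degree of freedom was 13.5 and 15.2 against its mates, and 2.55 to 7.13 for the other pairs. It held the lowest level of its group for Atf4, Ddit3, Trib3, Sesn2, Chac1, Cth and Asns and the highest for Atf3, Ddit4 and Gdf15. Without it the dose step at 24 h became 0.12 for Asns, from 0.25, and -0.16 for Ddit4, from -0.30. For the other 8 genes it was between 0.20 and 1.48, in place of 0.24 to 1.44. The differences of 1 µg at 24 h from untreated cells without that library were 0.69 for Atf3, the smallest, to 4.51 for Trib3, the largest.

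**Figure D3:**
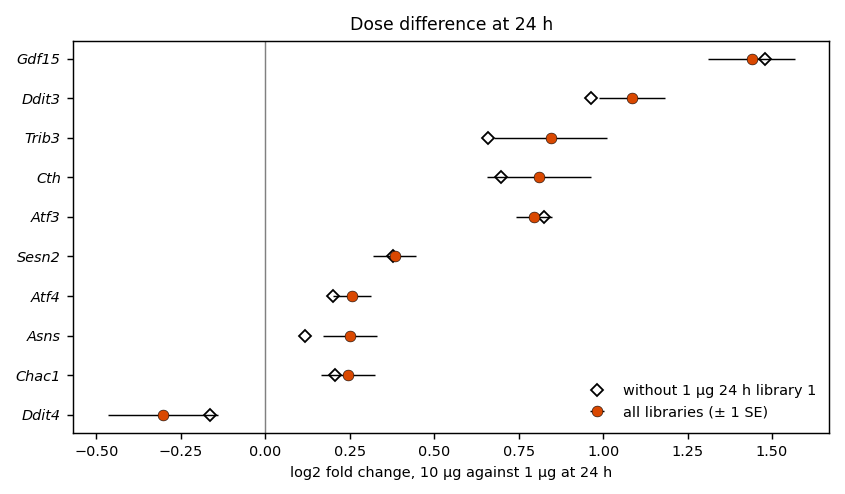
Fitted log2 difference between 10 µg and 1 µg at 24 h (horizontal axis) for each gene. Filled points use all libraries with bars of ± 1 SE and open diamonds leave out library 1 of 1 µg at 24 h; Gdf15 is highest, Ddit4 is the only gene below 0, and Asns moves from 0.25 to 0.12.

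The dose step at 24 h less the dose step at 6 h, the interaction of dose and time, was above 0 for 9 of the 10. It was 1.25 ± 0.31 for Gdf15, 1.20 ± 0.39 for Trib3, 0.84 ± 0.16 for Ddit3, 0.54 ± 0.08 for Atf3, 0.54 ± 0.31 for Cth and 0.52 ± 0.11 for Sesn2. It was 0.17 ± 0.08 for Atf4, whose libraries at 6 h already differed slightly by dose, and -0.55 ± 0.31 for Ddit4. At 6 h the 10 µg libraries lay above all 1 µg libraries for Atf4, Ddit3 and Atf3, the factors of the group, and below them for Trib3. Of the 10, 3 were thus higher without overlap at 6 h between doses, where 12.7% of all genes were, and 1 was lower, where 11.4% were. In the interaction 4 of the 10 were called above 0, beside 7.58% of all genes, and in the dose step at 6 h 1 was called higher, beside 1.85%; nothing is read from these counts either.

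All 8 markers on a list for macrophages passed the filter, led by Lyz2, Csf1r and Cd68. Each was read in every library, and the lowest level of any was 8.06 CPM, for Fcgr1. The summed level of the 8 was 12975 to 13461 CPM in untreated libraries and 10206 to 11242 CPM with 10 µg at 24 h. Lyz2, with a mean of 9295 CPM over all libraries, was the largest part of that sum. The part of this fall in the results was not tested. Markers of T cells, fibroblasts and epithelium each summed to at most 0.335 CPM in any library, and those of B cells to at most 0.820 CPM.

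The eIF2 kinases and phosphatase act upstream of ATF4 and are not among the 10 genes. Of 16 genes for eIF2, its kinases, its phosphatase and its exchange factor, 4 rose and 8 fell at 24 h with each dose, with a median of -0.12 on the log2 scale with either. Among all genes tested 30.8% rose and 31% fell with 1 µg, and 35.4% rose and 34.9% fell with 10 µg. Nothing is read from the counts of this list. Ppp1r15a, which encodes GADD34, the stress-induced subunit that directs phosphatase to eIF2, had the largest change. It is also among the regulators that ATF4 induces and in the wider target list, both given below, so their counts include it. It had 30.4 ± 1.39 CPM untreated (SD, n = 3), 80.0 ± 10.1 CPM with 1 µg at 24 h and 165 ± 22.5 CPM with 10 µg at 24 h. The log2 rise was 1.40 ± 0.10 with 1 µg (adjusted p = 3.22e-09, edgeR) and 2.44 ± 0.10 with 10 µg (adjusted p = 8.56e-13, edgeR). With 10 µg at 6 h it was higher by 0.40 ± 0.10 (adjusted p = 0.0317, edgeR), and that call was lost without any 1 of the 6 libraries, at adjusted p of 0.0611 to 0.115, with the replicate block (adjusted p = 0.0638) and with no filter on low counts (adjusted p = 0.0671).

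Of the 4 eIF2 kinases, Eif2ak2, the double-stranded RNA sensor PKR, fell and Eif2ak4, the amino acid sensor GCN2, rose. Eif2ak2 had 171 ± 14.5 CPM untreated, 103 ± 7.33 CPM with 1 µg and 78.4 ± 2.38 CPM with 10 µg at 24 h. The log2 fall with 10 µg was -1.13 ± 0.06 (adjusted p = 1.03e-14, edgeR). Eif2ak4 rose by 0.46 ± 0.06 with either dose at 24 h (adjusted p = 4.75e-07 and 3.94e-07, edgeR). Eif2ak1, the haem-regulated kinase, differed by -0.07 ± 0.06 with 1 µg and -0.04 ± 0.06 with 10 µg, and Eif2ak3, the endoplasmic reticulum kinase PERK, by -0.03 ± 0.07 and 0.04 ± 0.07, none of which passed the test. Eif2s1, the alpha subunit that the kinases modify, fell by -0.62 ± 0.05 and -0.69 ± 0.05 (adjusted p = 1.7e-11 and 7.74e-13, edgeR). These are transcript levels, and phosphorylation was not measured.

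A wider list of 58 genes known as ATF4 targets, none of them among the 10, was then read in the same fit. It was written from textbook knowledge with earlier results of these data known, and 53 of its genes passed the filter. At 24 h with 1 µg 44 of the 53 rose and 2 fell, with a median of 0.72 on the log2 scale, where 30.8% of all genes rose and 31% fell. With 10 µg 43 rose and 5 fell, with a median of 0.86, where 35.4% of all genes rose and 34.9% fell. Rises of at least 2-fold that passed the test numbered 21 of 53 with 1 µg and 24 of 53 with 10 µg, beside 718 and 1126 of the 12401 genes tested. At 6 h none passed with 1 µg by edgeR, DESeq2 or limma-voom, and 0 of the 53 had an unadjusted p under 0.05. Among all genes 337 of 12401 had one, and again none was called by any of those tools. With 10 µg at 6 h 4 of the 53 rose and 2 fell, beside 4.09% and 1.86% of all genes, and those 6 calls became 3 without untreated library 2 or without library 1 of 10 µg at 6 h. Between doses at 24 h 22 rose and 7 fell with 10 µg over 1 µg, beside 16% and 19.3% of all genes, and those 29 calls became 19 without library 2 of 10 µg at 24 h.

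**Figure D4:**
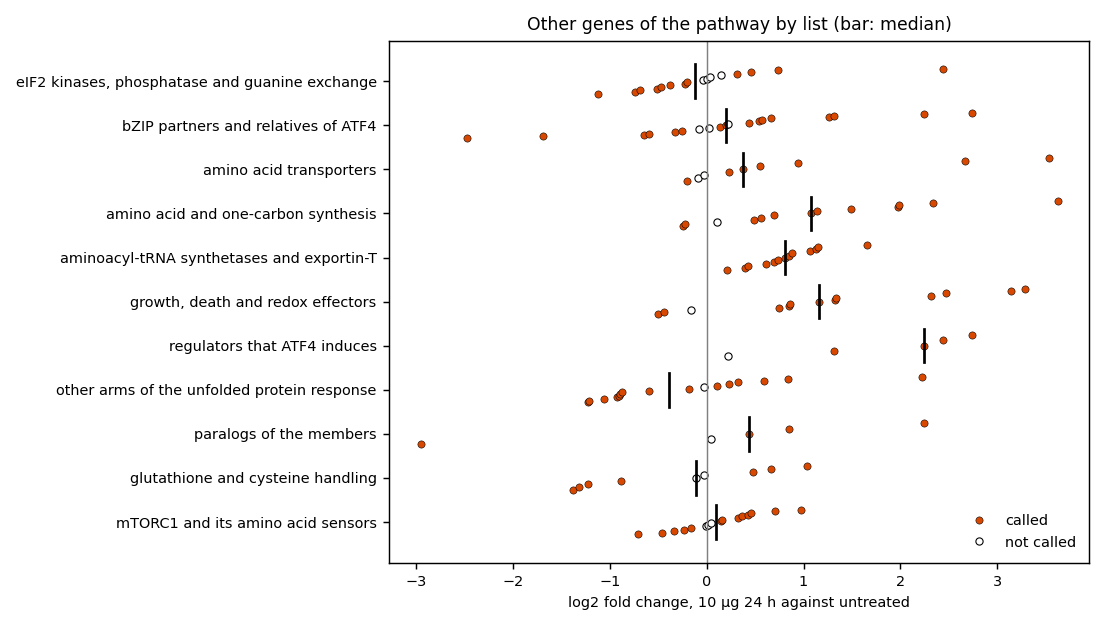
Log2 fold change of 10 µg at 24 h from untreated cells (horizontal axis) for the tested genes of each pathway list (rows), the 10 genes left out. Filled points passed the test (adjusted p under 0.05), open points did not, and bars are medians; all 13 synthetase and exportin genes lie above 0, and the median of the other unfolded protein response genes is -0.39.

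Of 5 regulators that ATF4 induces, 4 rose at 24 h with each dose, beside 30.8% of all genes with 1 µg and 35.4% with 10 µg. This list and those of synthetases, amino acid synthesis, transporters and effectors below are the parts of the wider list. Their counts repeat it and are not separate from it. Atf5, a close relative of ATF4 that is also controlled by translation, had 33.7 ± 0.389 CPM untreated, 127 ± 18.7 CPM with 1 µg and 160 ± 12.3 CPM with 10 µg at 24 h. Its log2 rises were 1.91 ± 0.08 and 2.24 ± 0.08 (adjusted p = 9.31e-13 and 2.29e-14, edgeR). Nupr1, a small chromatin-associated stress factor, rose by 2.36 ± 0.13 and 2.74 ± 0.13 (adjusted p = 3.66e-11 and 1.34e-12, edgeR). Cebpg, a C/EBP protein that pairs with ATF4, rose by 0.96 ± 0.09 and 1.32 ± 0.09 (adjusted p = 1.03e-07 and 9.13e-10, edgeR). Cebpb, another partner, was the exception, at -0.01 ± 0.22 and 0.22 ± 0.22, neither past the test, with replicate libraries that varied widely (106 ± 19.8 CPM untreated). Of 19 tested bZIP partners and relatives of ATF4, Atf5, Nupr1, Cebpg and Cebpb among them, 10 rose and 7 fell with 1 µg. With 10 µg 10 rose and 6 fell. The shares of all genes were 30.8% and 31% with 1 µg and 35.4% and 34.9% with 10 µg. Fos went from 126 ± 6.55 CPM untreated to 71.0 ± 11.1 and 39.1 ± 1.25 CPM at 24 h. Junb went from 249 ± 15.3 CPM to 162 ± 13.1 and 165 ± 3.11 CPM. Jun went the other way, from 121 ± 7.20 CPM to 139 ± 5.47 and 180 ± 15.8 CPM.

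All 13 genes on the list of aminoacyl-tRNA synthetases and the tRNA exporter exportin-T rose at 24 h with either dose, with medians of 0.66 and 0.81 on the log2 scale. The shares of all genes that rose were 30.8% with 1 µg and 35.4% with 10 µg. Sars, the seryl-tRNA synthetase, rose most with 10 µg, from 214 ± 4.38 CPM untreated to 674 ± 47.3 CPM, a log2 change of 1.66 ± 0.10 (adjusted p = 6.34e-10, edgeR). Cars, for cysteine, rose by 1.07 ± 0.06 and Iars, for isoleucine, by 0.74 ± 0.05 with that dose. Wars, for tryptophan, differed between the doses: it had 103 ± 4.24 CPM untreated, 121 ± 12.7 CPM with 1 µg and 167 ± 2.81 CPM with 10 µg, a dose step of 0.46 ± 0.06 (adjusted p = 4.65e-07, edgeR). Cars showed a dose step of 0.02 ± 0.05, which did not pass.

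Of 13 tested genes for amino acid and one-carbon synthesis, 11 rose with 1 µg and none fell, and 10 rose and 2 fell with 10 µg. Among all genes 30.8% rose and 31% fell with 1 µg, and 35.4% rose and 34.9% fell with 10 µg. Pck2, the mitochondrial PEP carboxykinase, rose by 2.30 ± 0.09 and 2.34 ± 0.09, and Gpt2, the mitochondrial alanine aminotransferase, by 1.82 ± 0.08 and 1.99 ± 0.08. Phgdh, which opens serine synthesis, rose by 1.25 ± 0.07 and 1.49 ± 0.07. Mthfd2, a mitochondrial folate enzyme, rose by 1.17 ± 0.05 and 1.14 ± 0.05. Psat1, the next enzyme of serine synthesis after PHGDH, had another pattern: 283 ± 3.91 CPM untreated, 418 ± 36.9 CPM with 1 µg and 305 ± 13.7 CPM with 10 µg at 24 h. It rose with 1 µg (0.56 ± 0.05, adjusted p = 1.4e-09, edgeR) and was lower with 10 µg than with 1 µg (-0.45 ± 0.05, adjusted p = 1.81e-07, edgeR). With 10 µg it was 0.11 ± 0.05 from untreated cells, which did not pass.

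Among 9 tested amino acid transporters, 6 rose and 1 fell at 24 h with each dose. The shares of all genes were 30.8% and 31% with 1 µg and 35.4% and 34.9% with 10 µg. Slc1a4, a carrier of alanine, serine and cysteine, went from 5.11 ± 0.688 CPM untreated to 49.8 ± 8.05 CPM with 1 µg and 59.5 ± 0.864 CPM with 10 µg. Its log2 rises were 3.28 ± 0.12 and 3.54 ± 0.12 (adjusted p = 1.67e-15 and 1.12e-16, edgeR). Slc6a9, a glycine carrier, rose by 2.51 ± 0.09 and 2.67 ± 0.09. Slc3a2, the heavy chain shared by several exchangers, rose by 0.72 ± 0.05 and 0.94 ± 0.05. These genes had the smallest p of the list at 24 h. Over the 9 the log2 changes ran from -0.16 to 3.28 with 1 µg, with a median of 0.54. With 10 µg they ran from -0.21 to 3.54, with a median of 0.38. Slc1a5, also on the list, had 320 ± 5.44 CPM untreated, 330 ± 19.4 CPM with 1 µg and 302 ± 11.9 CPM with 10 µg.

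Of 13 tested effectors of growth, death and redox balance, 10 rose with each dose at 24 h, and 1 fell with 1 µg and 2 with 10 µg. Beside them, 30.8% of all genes rose and 31% fell with 1 µg, and 35.4% rose and 34.9% fell with 10 µg. Vegfa, the vascular growth factor, rose from 15.9 ± 1.38 CPM to 70.8 ± 2.09 CPM with 1 µg and 88.0 ± 4.17 CPM with 10 µg. It was also higher with 10 µg at 6 h, by 0.44 ± 0.08 (adjusted p = 0.00108, edgeR). Sqstm1, the autophagy adaptor p62, rose mainly with the higher dose, from 728 ± 28.9 CPM to 959 ± 96.8 CPM and 1626 ± 132 CPM, a dose step of 0.76 ± 0.06 (adjusted p = 2.12e-09, edgeR). Pmaip1, the pro-death BH3 protein NOXA, rose at 24 h by 1.23 ± 0.08 and 0.86 ± 0.08 and was lower with 10 µg than with 1 µg by -0.37 ± 0.07 (adjusted p = 0.000368, edgeR). With 10 µg at 6 h it had fallen by -0.39 ± 0.09 (adjusted p = 0.00598, edgeR).

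Genes of the other arms of the unfolded protein response, run by IRE1 and ATF6, changed in both directions at 24 h. Of 16 such genes 4 rose and 8 fell with 1 µg (30.8% and 31% of all genes), and 6 rose and 9 fell with 10 µg (35.4% and 34.9% of all genes), with medians of -0.33 and -0.39 on the log2 scale. Hsp90b1, the chaperone GRP94, fell from 1165 ± 43.3 CPM to 687 ± 114 CPM with 1 µg and 559 ± 25.5 CPM with 10 µg, a log2 change of -1.06 ± 0.08 with the latter (adjusted p = 7.45e-10, edgeR). Creld2, another resident protein of the endoplasmic reticulum, fell by -0.94 ± 0.09 and -1.23 ± 0.09. Hspa5, the chaperone BiP, chosen after its values were seen, had 1523, 1536 and 1578 CPM untreated, 1395, 885 and 864 CPM with 1 µg and 868, 1124 and 1082 CPM with 10 µg at 24 h. Ern1, which encodes IRE1 itself, rose from 41.8 ± 3.36 CPM to 109 ± 14.9 CPM and 196 ± 13.8 CPM, by 1.38 ± 0.09 and 2.23 ± 0.09 (adjusted p = 1.73e-09 and 1.32e-12, edgeR). Herpud1, a degradation factor, rose by 0.91 ± 0.08 and 0.84 ± 0.08.

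Chac1 and Cth handle glutathione and cysteine, and of 9 other tested genes of that handling 3 rose and 4 fell at 24 h with each dose. These counts are near the shares of all genes, 30.8% and 31% with 1 µg and 35.4% and 34.9% with 10 µg, and are no result about the list. Gclc, the catalytic subunit of the enzyme that starts glutathione synthesis, fell from 207 ± 8.25 CPM to 103 ± 16.1 CPM with 1 µg and 79.3 ± 2.86 CPM with 10 µg. The log2 changes were -1.01 ± 0.07 and -1.38 ± 0.08 (adjusted p = 5.18e-10 and 2.16e-12, edgeR). Gclm, its modifier subunit, fell by -0.60 ± 0.05 and -0.89 ± 0.05, and Gsr, which regenerates reduced glutathione, by -1.04 ± 0.07 and -1.32 ± 0.07. Gclc, Gclm and Gsr are named for the smallest p of the list and do not stand for it. Over the 9 genes the log2 changes ran from -1.27 to 0.97 with 1 µg and from -1.38 to 1.03 with 10 µg.

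Sesn2 and Ddit4 restrain mTORC1, and 16 other genes of mTORC1 and its amino acid sensors gave small changes: 5 rose and 3 fell with 1 µg, and 8 rose and 5 fell with 10 µg, none by 2-fold. With 1 µg the share that rose was near the 30.8% of all genes, and with 10 µg the share that fell was near the 34.9%. Rptor, the substrate-binding subunit RAPTOR, fell by -0.52 ± 0.06 and -0.46 ± 0.06 (adjusted p = 1.28e-07 and 4.82e-07, edgeR). Wdr59, a GATOR2 subunit, rose by 0.41 ± 0.08 and 0.70 ± 0.08, and Tsc1, of the TSC complex, by 0.26 ± 0.06 and 0.46 ± 0.06. Deptor, another gene of the list, had the smallest p of the list with 1 µg at 24 h against untreated cells. The log2 changes of the 16 genes in that comparison ran from -0.52 to 0.76. Deptor was also the only one called with 10 µg at 6 h, as lower, beside 1.86% of all genes. In the interaction of dose and time it was again the only one called, below 0.

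Close relatives of the 10 genes showed different patterns. Trib1, a tribbles pseudokinase like Trib3, fell: it had 28.9 ± 0.941 CPM untreated, 13.0 ± 3.79 CPM with 1 µg and 3.73 ± 0.617 CPM with 10 µg at 24 h. The log2 changes were -1.14 ± 0.13 (adjusted p = 8.06e-07, edgeR) and -2.95 ± 0.16 (adjusted p = 1.33e-11, edgeR), with no overlap between any of these groups. Sesn1, the sestrin tied mainly to p53, rose with 1 µg at 24 h by 0.38 ± 0.07 (adjusted p = 2.68e-05, edgeR) and differed with 10 µg by 0.05 ± 0.07, which did not pass. Chac2, the constitutive relative of Chac1, rose by 0.72 ± 0.14 and 0.85 ± 0.14 from 4.48 ± 0.223 CPM. Jdp2, a bZIP relative of Atf3, rose by 0.65 ± 0.06 with 1 µg and 0.44 ± 0.06 with 10 µg (adjusted p = 7.73e-10 and 4.62e-07, edgeR). Trib2 had 0 reads, Ddit4l 1 read and Sesn3 13 reads over all 15 libraries, and these were not tested.

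Among the 10 genes, each gene's profile over the 15 libraries was compared with the mean of the other 9, on log2 CPM. Pearson's r was 0.996 for Atf4, the highest, and 0.924 for Atf3, the lowest, with Ddit4 next at 0.946. The other genes tested were ranked by likeness to the mean of the 10, with predicted genes, Rik symbols and clone names left out. The 5 most alike were Calcoco1 (r = 0.998), Extl1 (r = 0.998), Mib2 (r = 0.997), Dennd2d (r = 0.996) and Appl2 (r = 0.996). The 15 points share the same 5 groups and 3 libraries each, so these values describe a common split between 24 h and the rest. Calcoco1, an autophagy receptor, had 13.3 ± 0.165 CPM untreated, 35.4 ± 1.90 CPM with 1 µg and 46.9 ± 4.31 CPM with 10 µg at 24 h. Extl1, a glycosyltransferase gene, was near the level of 3 reads in untreated libraries and had 3.13 ± 0.228 CPM and 6.40 ± 0.653 CPM at 24 h. Mib2, a ubiquitin ligase, went from 16.6 ± 0.908 CPM to 56.3 ± 3.12 CPM and 78.1 ± 0.497 CPM. Dennd2d had 44.7 ± 0.846, 155 ± 2.53 and 189 ± 4.77 CPM and Appl2 22.2 ± 0.442, 53.6 ± 2.45 and 78.0 ± 3.14 CPM in the same 3 groups. These genes were picked for their likeness, so no test is given.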

How the data were processed

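Messenger RNA was sequenced from 15 libraries of RAW264.7 cells in 5 groups of 3, all with the same batch label. Per the labels' protocols, RNA was extracted with TRIzol and RNeasy and made into TruSeq stranded mRNA libraries. The values are raw, unnormalized read counts per symbol, as the authors deposited them in a single table. The submitters' processing notes name the build GRCm39; the aligner, counter, annotation and strand setting were not given in the sources used here.

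Counts were fitted in R 4.3.3 with edgeR 4.0.16 (filterByExpr, TMM scaling, robust glmQLFit over all 15 libraries, two-sided glmQLFTest). The filter left 12401 of 25639 symbols and 99.97% of counts. Genes were called at a Benjamini-Hochberg adjusted p under 0.05, taken over all tested genes. The SE is the log2 fold change over the square root of F. The common biological coefficient of variation was 5.68%. A count of 3 was taken as the floor. The scripts were tested on simulated counts. Alternatives used RLE scaling, no filter, DESeq2 1.42.0, limma-voom (limma 3.58.1), only the groups compared, the replicate number as a block, and each library left out.

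The 10 genes and the 11 pathway lists were chosen with earlier results of these data known. Named genes are the 10, the 4 eIF2 kinases, Ppp1r15a, Cebpb, Cebpg, 6 paralogs (Trib1, Trib2, Sesn1, Sesn3, Chac2 and Ddit4l), genes among the 3 with the smallest p of each list in a comparison, and the 5 genes most alike by Pearson's r; Hspa5 and Mars1 were added after their values were seen. The 5 genes most alike were taken after predicted genes, Rik symbols and clone names were left out. Comparisons with untreated cells share the same 3 libraries. Promoter sequences are RefSeq's on GRCm38.p6, matched by symbol, and are not on the build of the counts.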

Additional observations from a re-analysis of the deposited data

Results flagged for a closer look

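For 13 genes of the pathway lists, 12 of them named above and Eprs, the dose step at 24 h differed from the dose step at 6 h. The test was the interaction test of edgeR with p adjusted over all genes. These 13 are not all the calls in the lists: others, Fos, Jun, Got1 and Deptor among them, also passed and are not listed here. The 10 core genes and the 5 genes picked for a profile like theirs are left out of this count, since they were chosen on their levels. The values are log2 differences of 24 h less 6 h. The step was larger at 24 h for Ern1 (0.81, adjusted p = 0.000406), Ppp1r15a (0.61, adjusted p = 0.00499), Slc1a4 (0.53, adjusted p = 0.043), Cebpg (0.48, adjusted p = 0.0137), Sqstm1 (0.45, adjusted p = 0.00121), Wars (0.43, adjusted p = 0.000551) and Eprs, the glutamyl-prolyl-tRNA synthetase (0.32, adjusted p = 0.0062). It was lower for Trib1 (-1.85, adjusted p = 1.58e-05), Eif2ak2 (-0.52, adjusted p = 9.3e-05), Jdp2 (-0.46, adjusted p = 0.000398), Psat1 (-0.41, adjusted p = 0.000309), Gclm (-0.30, adjusted p = 0.00185) and Sesn1 (-0.30, adjusted p = 0.0315). The calls for Slc1a4 and Sesn1 depended on single libraries: that for Sesn1 was lost without library 1 of 1 µg at 6 h, library 1 of 1 µg at 24 h, library 1 or 2 of 10 µg at 6 h, or library 2 or 3 of 10 µg at 24 h (adjusted p of 0.0568 to 0.104). That for Slc1a4 was lost without any library of 1 µg at 6 h, library 2 or 3 of 10 µg at 6 h, or any library of 10 µg at 24 h (adjusted p of 0.0538 to 0.153). It was also lost with limma-voom (adjusted p = 0.131), with the replicate block (adjusted p = 0.0527) and with only the treated groups fitted (adjusted p = 0.0538).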

How the results depend on the processing

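The count of wider-list genes called was 46 to 48 with 1 µg and 47 to 48 with 10 µg at 24 h against untreated cells under every alternative run, and 0 with 1 µg at 6 h. Between doses at 6 h the count of 5 became 3 with limma-voom, 3 with the replicate block, 9 with only the groups compared, and 1 to 3 when each library was left out. With 10 µg at 6 h against untreated cells the count of 6 ran from 3 to 4 when each library was left out, and was 3 without untreated library 2 or without library 1 of 10 µg. Between doses at 24 h the count of 29 ran from 19 to 28, with 19 without library 2 of 10 µg. The interaction count of 15 ran from 10 to 19 when each library was left out. The cause was not tested. Replicate numbers did not pair the libraries: same-numbered libraries of different groups had a median correlation of deviations of 0.0186 over 30 pairs (-0.221 to 0.246), and 7 of 15 libraries correlated best with their own number. No value reversed. For the 10 core genes, 17 fitted values moved by more than 1 SD of the replicates and 1123 did not; the 17 were in Gdf15, Cth and the interaction of Asns (0.11 in place of 0.24 without library 1 of 1 µg at 24 h). Without untreated library 2 the Cth difference with 10 µg at 24 h was 4.50 in place of 4.17, and without untreated library 1 that of Gdf15 was 5.16 in place of 5.02. With the 50 bases after the start added to the promoter window, 4 of the 9 genes held the TGATGNAA core, Trib3 being added, beside 3.97% of all promoters.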
